A study of Mus musculus with 12 samples.

Results

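Gene expression in hippocampal slices 1 hr after cLTP, a form of long-term potentiation induced by drugs and called LTP here, was compared with that of time-matched control slices, across all genes of the 1 hr count table. The comparison used 6 of the 12 RNA-seq libraries of the series, 3 of LTP slices and 3 of controls, and the table listed 41091 gene IDs. The acute slices came from male wild-type C57BL/6 mice aged 2 to 3 months, and each animal gave both an LTP and a control library. The dentate gyrus was cut away and the mini-slices recovered for 2 hr. LTP slices then received 50 uM forskolin for 5 min and, for the rest of a 10 min treatment, 50 uM forskolin with 30 mM KCl and 10 mM calcium, while control slices received 0.2% DMSO for 10 min. Libraries are named here by group and animal, so control 1 and LTP 1 came from the same mouse. A control library, that of the second animal, had been set aside in the original work as an outlier of the clustering. Results are therefore given without control 2 (2 controls against 3 LTP libraries) and with it (3 against 3). Slices had been picked for sequencing where qPCR showed higher Arc and short Homer1 mRNA and steady long Homer1 and Hprt, so the values of Arc, Homer1 and Hprt are not independent of how the samples were chosen.

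Forskolin activates adenylyl cyclase, which raises cAMP and activates protein kinase A, and high potassium and calcium depolarize neurons and drive calcium entry. Both routes lead to the transcription factor CREB and to MAP kinase signaling, which switch on immediate early genes without new protein synthesis. Many of these genes encode transcription factors such as Fos, Egr1, Npas4 and Nr4a1, others encode proteins that act at synapses such as Arc and Homer1a, and a further set encodes inhibitors of the same signals, such as the dual-specificity phosphatases. Transcripts of this kind commonly peak within the first hour and decline after it.

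The 6 libraries held between 37118382 and 48654494 counts, so that 3 counts corresponded to 0.0617 to 0.0808 CPM (counts relative to library size, scaled by TMM). Across genes, the Spearman correlation between libraries lay between 0.990 and 0.996. On the first principal component, which held 39.1% of the variance, control 2 and LTP 2 stood at opposite ends, with scores of -22.0 and 24.4 against -7.74 to 7.83 in the other 4 libraries. An ID that the annotation used here did not match, ENSMUSG00000045999.8, took 1.54% of its counts and between 0.0141% and 0.148% in the other libraries. Over 14172 genes whose mean reached 1 CPM, 6 in control 2 were more than 2-fold above both other controls and 11 more than 2-fold below them, against 1 above and 6 below in control 1 and 2 above and 15 below in control 3. The largest such gaps after that ID were in Hist1h4m (2.33 CPM in control 2, 0.849 and 0.848 CPM in controls 1 and 3) and Gm10654 (3.22 against 1.44 and 1.44 CPM). On the low side they were in Gm13136 (0.392 against 1.42 and 1.18 CPM), the pseudogene Tpt1-ps5 (0.536 against 1.60 and 1.41 CPM) and Xlr3b (0.970 against 2.34 and 2.26 CPM). Among LTP libraries, LTP 3 had 38 genes more than 2-fold below both others and 0 above.

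Genes called at 1 hr were almost all higher after LTP. Over all genes tested there was no such lean, with 49.7% above a log2 fold change of 0 without control 2 and 48.8% with all 6 libraries. Without control 2, 140 of 17736 genes tested were called differentially expressed, meaning a Benjamini-Hochberg adjusted p under 0.1 in the edgeR quasi-likelihood test and a fold change over 1.2, which is 0.789% of the genes tested. Of these, 138 were higher (0.778%) and 2 lower (0.0113%) after LTP, and 1190 genes (6.71%) had an unadjusted p under 0.05. With all 6 libraries, 144 of 17419 genes were called (0.827%), 142 higher (0.815%) and 2 lower (0.0115%), and 1455 (8.35%) had an unadjusted p under 0.05. The fits shared 117 calls. Genes that rose had a median of 0.73 on the log2 scale without control 2 and 0.74 with it, and 45 and 49 of them more than doubled. The count rested in part on single libraries. Without control 2 it was 69 when control 1 was left out too, 78 when control 3 was, 92 without LTP 1 and 344 without LTP 3, and with all 6 libraries it was 92 without control 1, 95 without LTP 1 and 226 without LTP 3. With the animal as a block, which leaves animals 1 and 3 as pairs and 1 residual degree of freedom, the count without control 2 was 220, of which 135 were among the 140. That count took the adjusted p under 0.1 alone, without the limit of 1.2-fold.

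Within animal 2, whose LTP library was in the fit without control 2 and whose control was not, 135 of the 140 genes (96.4%) had an LTP over control ratio in the direction of the fit, against 62.7% of all tested genes. In animals 1 and 3 the direction was fixed by how the genes were called. In animal 2 it was fixed in part, since LTP 2 entered the calls and lay beyond controls 1 and 3 in all 140 genes. Only control 2 was new to them, so the shares of all tested genes are not a like comparison. The median log2 ratio of the 138 genes that rose was 0.74 in animal 1, 0.70 in animal 2 and 0.59 in animal 3, and 118 of the 138 exceeded 1.2-fold in animal 2, against 23.8% of all tested genes. The groups did not overlap in all 140 called genes without control 2 and in 138 of 144 with it, against 22.2% and 13.3% of all genes tested. LTP was the higher group in 11.2% and 7.01% of all genes tested. The calls rest on the separation of these same libraries, so the non-overlap follows largely from the calling and is no added support. Control 2 was the highest of the controls in 77 of the 138 genes (55.8%, against 39.0% of all tested), a set called for low values in the other controls, and in 57 of the 142 genes that rose with all 6 libraries (40.1%). LTP 3 was the lowest of the LTP libraries in 78 of the 138 (56.5%, against 34.6% of all tested) and in 90 of the 142 (63.4%).

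**Figure D1:**
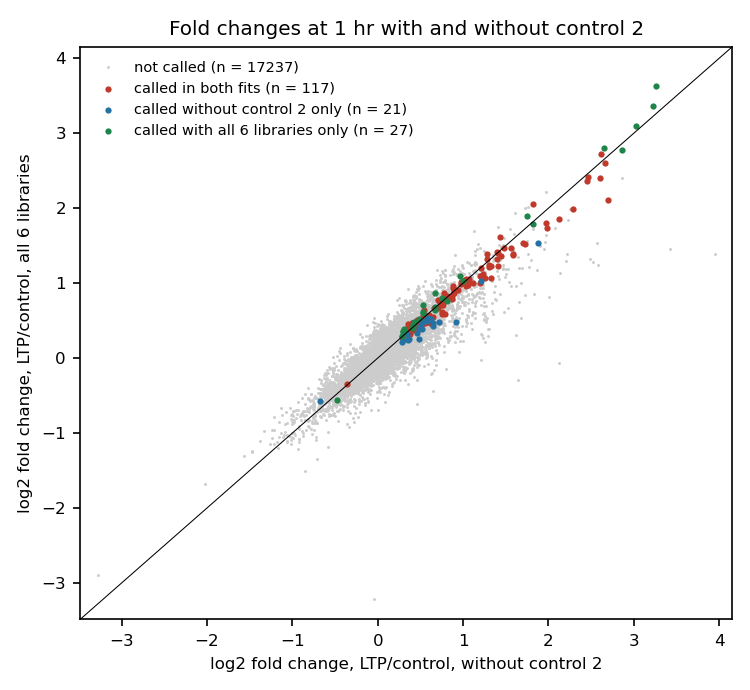
Log2 fold change (LTP over control) of each of 17402 genes tested in both fits, without control 2 on the horizontal axis and with all 6 libraries on the vertical axis, with a line at equal values. The 117 genes called in both fits include Mir132, which lies below the line at 2.69 without control 2 and 2.11 with all 6 libraries, and 5 of the genes called only with all 6 libraries lie above a log2 fold change of 2.5.

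Among the 10 largest rises with a mean of 1 CPM or more were several transcription factors and a regulator of mRNA decay. Btg2 (ENSMUSG00000020423.6, GRCm38 chr1:134075170-134079120), which encodes an antiproliferative protein that recruits the CCR4-NOT deadenylase, had 32.5, 39.7 and 38.5 CPM in controls 1, 2 and 3 and 228, 239 and 207 CPM in LTP 1, 2 and 3. Its log2 fold change was 2.66 (SE 0.0935, edgeR adjusted p = 5.44e-10) without control 2 and 2.61 (SE 0.0915) with it. Egr2 (ENSMUSG00000037868.10, chr10:67535475-67542188), a zinc finger transcription factor, had 10.8, 12.3 and 11.5 CPM in the controls and 61.6, 63.1 and 60.5 CPM after LTP. The LTP levels of Egr2 lay within 3 CPM of each other, its log2 fold change was 2.47 (SE 0.0863, edgeR adjusted p = 5.44e-10), and control 2 moved it little (2.42). Npas4 (ENSMUSG00000045903.8, chr19:4984355-4990316), a factor that in neurons is switched on by calcium entry, had 24.1, 31.5 and 20.2 CPM in the controls and 119, 128 and 155 CPM after LTP, a log2 fold change of 2.60 (SE 0.119) without control 2 and 2.41 with it.

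For several of the strongest responders control 2 already lay above the other controls, so that the fold change shrank when it was included. Fos (chr12:85473890-85477273), a subunit of the AP-1 transcription factor, had 192, 279 and 211 CPM in controls 1, 2 and 3 and 832, 804 and 735 CPM in the LTP libraries. Its log2 fold change was 1.97 (SE 0.0773, edgeR adjusted p = 1.67e-09) without control 2 and 1.80 (SE 0.113) with it. Arc (chr15:74669083-74672570), whose protein drives the removal of AMPA receptors from synapses, had 150, 220 and 130 CPM in the controls and 594, 542 and 530 CPM after LTP. Arc rose by 1.99 on the log2 scale without control 2 and by 1.73 with it, and within animals by 1.98, 1.3 and 2.03. Egr4 stood at 8.36, 13.6 and 7.96 CPM in the controls and 40.3, 33.1 and 45.7 CPM after LTP, and its log2 fold change moved from 2.28 (SE 0.13) to 1.99 (SE 0.171) once control 2 was used. Junb had 109, 164 and 116 CPM in the controls and 413, 302 and 400 CPM after LTP, and its ratio in animal 2 (log2 0.88) was below those of animals 1 and 3 (1.92 and 1.79). For each of these 4 genes the groups did not overlap in either fit.

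**Figure D2:**
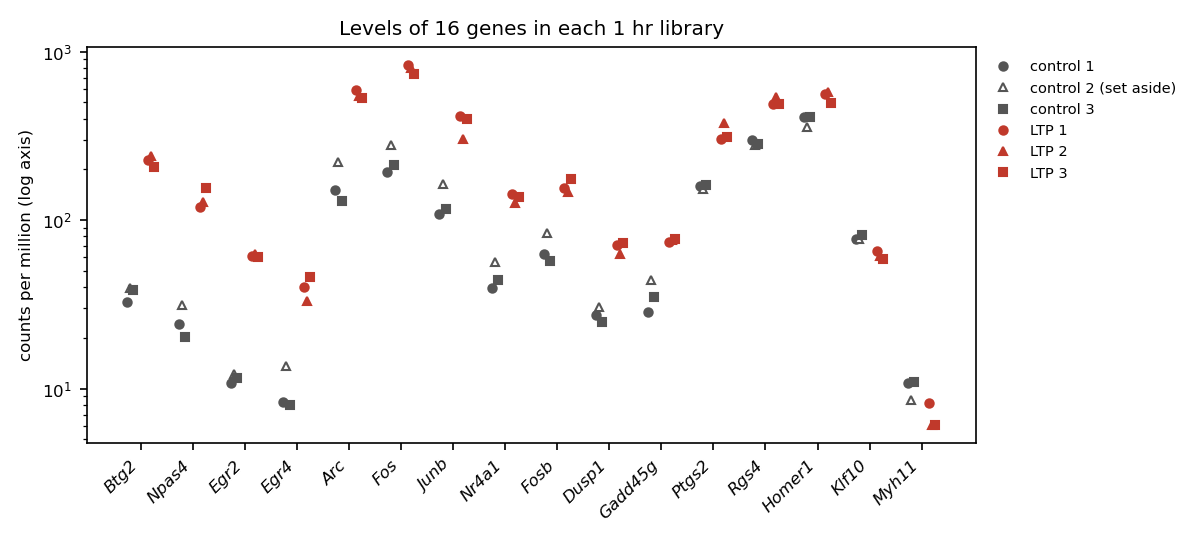
Level of 16 genes in each of the 6 libraries, in CPM on a log axis, with controls in grey, LTP in red, marker shapes for the animals and an open triangle for control 2. Btg2, Npas4 and Egr2 show the widest gaps between the groups, control 2 is the highest control for Arc, Fos and Junb, and Klf10 and Myh11 are lower after LTP.

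Known families were then followed as lists. Over 15 gene lists chosen for an activity response, 69 of 275 tested genes were called without control 2 (25.1%) and 63 of 274 with it (23.0%), against 0.789% and 0.827% of all genes. The lists were drawn up with results of these data known, so these shares describe them and are no independent evidence of a response.

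Among AP-1 subunits, 6 of 9 tested members rose and 0 fell (median 0.61 on the log2 scale), and 6 of 8 rose with all 6 libraries. Besides Fos and Junb these were Fosb (63.1, 83.8 and 57.0 CPM in the controls, 156, 148 and 176 CPM after LTP, log2 fold change 1.41), Atf3 (36.6, 46.1 and 48.9 CPM against 81.3, 86.0 and 67.7 CPM, 0.87), Jun (0.61) and Fosl2 (0.56). Jun is a main dimer partner of Fos. Jund (0.38) and Fosl1 (-0.01) were not called. Without control 3 the calls of Jun (0.43, edgeR adjusted p = 0.149) and Fosl2 (0.45, adjusted p = 0.180) were lost.

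In the group of Egr, Nr4a and Npas4 factors, 8 of 10 tested members rose (median 1.17 on the log2 scale), and 7 rose with all 6 libraries. Egr1 had 30.8, 33.0 and 27.5 CPM in the controls and 78.4, 67.8 and 69.7 CPM after LTP (1.31, SE 0.0895). The nuclear receptor Nr4a1 had 39.6, 56.8 and 44.0 CPM in the controls and 143, 126 and 137 CPM after LTP (1.70, SE 0.0829). Its relatives differed in size, with Nr4a2 at 1.03 (SE 0.0762) and Nr4a3 at 0.47 (SE 0.0788). Nr4a3 was already at 85.6, 81.8 and 89.6 CPM in controls and reached 119, 113 and 131 CPM, and it lost its call when control 1 was left out as well (0.43, edgeR adjusted p = 0.242). Egr3 rose without control 2 only, as given further on, and the Egr co-repressors Nab1 (0.11) and Nab2 (-0.07) were not called.

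Of 16 Krüppel-like and bZIP factors, 4 rose and 1 fell in both fits. Klf2 (2.98, 3.18 and 2.95 CPM in the controls, 6.24, 5.49 and 6.76 CPM after LTP, 1.06), Klf4 (0.90), Klf6 (0.57) and the bZIP repressor Nfil3 (0.75) rose. Klf10, a TGF-beta-inducible repressor of the same family, fell by 0.36 on the log2 scale (SE 0.0741, edgeR adjusted p = 0.0422), from 77.3, 77.3 and 81.5 CPM in the controls to 65.8, 60.9 and 59.0 CPM after LTP. The groups did not overlap, and Klf10 was called in both fits, but not when control 1 (-0.40, edgeR adjusted p = 0.257) or control 3 (-0.32, adjusted p = 0.549) was left out beside control 2. Among 17 other transcription regulators 3 rose without control 2, namely Csrnp1 (0.75), Irs2 (0.72, an insulin receptor adaptor that the list had grouped here) and the clock repressor Bhlhe40 (0.38). With all 6 libraries Irs2 was not called, and without control 2 Bhlhe40 lost its call when control 1 (0.39, edgeR adjusted p = 0.196), control 3 (0.37, 0.250) or LTP 1 (0.36, 0.110) was left out. Srf (0.21), Myc (0.12) and Crem (0.22) were not called.

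Inhibitors of MAP kinase signaling responded as well, with 7 of 18 tested members higher without control 2 and 6 with it. Dusp1, a nuclear phosphatase of MAP kinases, had 27.5, 30.4 and 25.0 CPM in the controls and 71.2, 63.0 and 73.3 CPM after LTP (1.40, SE 0.0904, edgeR adjusted p = 4.4e-07). Dusp6, the cytoplasmic phosphatase of ERK, was more abundant, with 123, 139 and 146 CPM in the controls and 273, 285 and 290 CPM after LTP (1.07, SE 0.0796). The pseudokinase Trib1 (1.24), the ERBB inhibitor Errfi1 (0.82), Dusp5 (0.62), Spry2 (0.47) and Dusp4 (0.37) also rose. The exons of Dusp5 overlap those of other genes over 22.1% of their bases, which makes its count less certain. Dusp4 had 39.6 CPM in control 2 against 31.7 and 32.4 CPM in controls 1 and 3 and was not called with all 6 libraries (0.26, edgeR adjusted p = 0.485). It was also lost when control 1 (0.35, adjusted p = 0.70), control 3 (0.39, 0.514) or LTP 1 (0.32, 0.498) was left out, and Spry2 was lost without control 1 (0.39, 0.251). The Spred genes, Dusp7, Dusp8 and Dusp16 lay between -0.14 and 0.10.

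Of 26 tested kinases, RGS proteins and small GTPases, 14 rose without control 2, with a median of 0.45, and 13 with all 6 libraries. Sik1, a kinase that restrains CREB coactivators, had 16.7, 22.0 and 18.9 CPM in the controls and 42.8, 38.5 and 34.4 CPM after LTP (1.12, SE 0.103), while Sik2 (0.35) and Sik3 (-0.001) were not called. Among regulators of G-protein signaling, Rgs4 rose from 299, 280 and 282 CPM to 491, 541 and 491 CPM (0.81, SE 0.0714) and Rgs2 from 73.4, 65.9 and 75.1 CPM to 118, 143 and 119 CPM (0.77, SE 0.0874), but Rgs7 (-0.10) and Rgs14 (-0.06) were not called. Small GTPases of several families rose: Arl4d (1.2, SE 0.0949), Gem (0.90, SE 0.13), which limits voltage-gated calcium channels, Rasl11a (0.89), Rasl11b (0.52), Rasd1 (0.51) and Rnd3 (0.45). The polo-like kinase Plk2, which phosphorylates spine proteins, had the highest counts of the group, at 620, 626 and 674 CPM in the controls and 903, 894 and 834 CPM after LTP (0.44, SE 0.0671). Sgk1 (0.54), Pim1 (0.52) and Pim3 (0.48) completed the kinases beside Plk3, and Pim3 was not called with all 6 libraries (0.26, edgeR adjusted p = 0.648). Arl5b was called with all 6 (0.36, adjusted p = 0.0675) and not without control 2 (0.29, adjusted p = 0.130), unless the animal was a block (0.30, adjusted p = 0.0146). Calls in this group often ended when a further library was left out. Without control 1, Plk2 (0.38, edgeR adjusted p = 0.243), Rasd1 (0.32, 0.755), Rasl11b (0.42, 0.496), Pim1 (0.50, 0.351), Pim3 (0.41, 0.481) and Rnd3 (0.41, 0.693) were lost. Without control 3, Sgk1 (0.45, edgeR adjusted p = 0.345), Pim1 (0.54, 0.235), Pim3 (0.55, 0.112) and Rnd3 (0.50, 0.356) were lost. Without LTP 1, Rasd1 (0.51, 0.193), Pim1 (0.52, 0.110), Pim3 (0.46, 0.134) and Rnd3 (0.46, 0.265) were lost, and without LTP 2, Rnd3 (0.36, 0.121).

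Feedback on mRNA decay, translation and stress held 11 of 19 tested members that rose without control 2 and 8 with it. Beside Btg2, its relatives Tob1 (31.5, 29 and 31.0 CPM against 42.2, 43.0 and 49.4 CPM, 0.53) and Btg1 (0.39) rose to a smaller extent. Ppp1r15a, which directs the removal of the stress phosphorylation of eIF2, had 51.3, 60.9 and 53.6 CPM in the controls and 110, 110 and 103 CPM after LTP (1.04, SE 0.0726, edgeR adjusted p = 9.45e-07), and its constitutive relative Ppp1r15b changed less (0.41). Gadd45g, linked to stress signaling and DNA demethylation, had 28.5, 44.3 and 35.1 CPM in the controls and 73.9, 76.3 and 76.9 CPM after LTP, a log2 fold change of 1.25 (SE 0.091) without control 2 and 1.07 (SE 0.12) with it. Ier2 rose by 1.2 (SE 0.154), and Gadd45b (0.52), Zfp36l1 (0.51), Midn (0.46) and the survival factor Mcl1 (0.29) passed at smaller sizes. With all 6 libraries Gadd45b (0.38, edgeR adjusted p = 0.151), Zfp36l1 (0.45, 0.113) and Midn (0.34, 0.377) were not called, and 55.9% of the exonic bases of Zfp36l1 overlap other genes. The call of Tob1 was lost without control 1 (0.53, edgeR adjusted p = 0.165) or control 3 (0.51, 0.173), and that of Ppp1r15b without control 3 (0.33, 0.466) or LTP 1 (0.41, 0.10). Btg1, Zfp36l1, Midn and Mcl1 were each lost when control 1, control 3 or LTP 1 was left out, with edgeR adjusted p from 0.145 (Zfp36l1 without LTP 1) to 0.763 (Mcl1 without control 1), and Zfp36l1 (0.182) and Mcl1 (0.121) also without LTP 2.

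**Figure D3:**
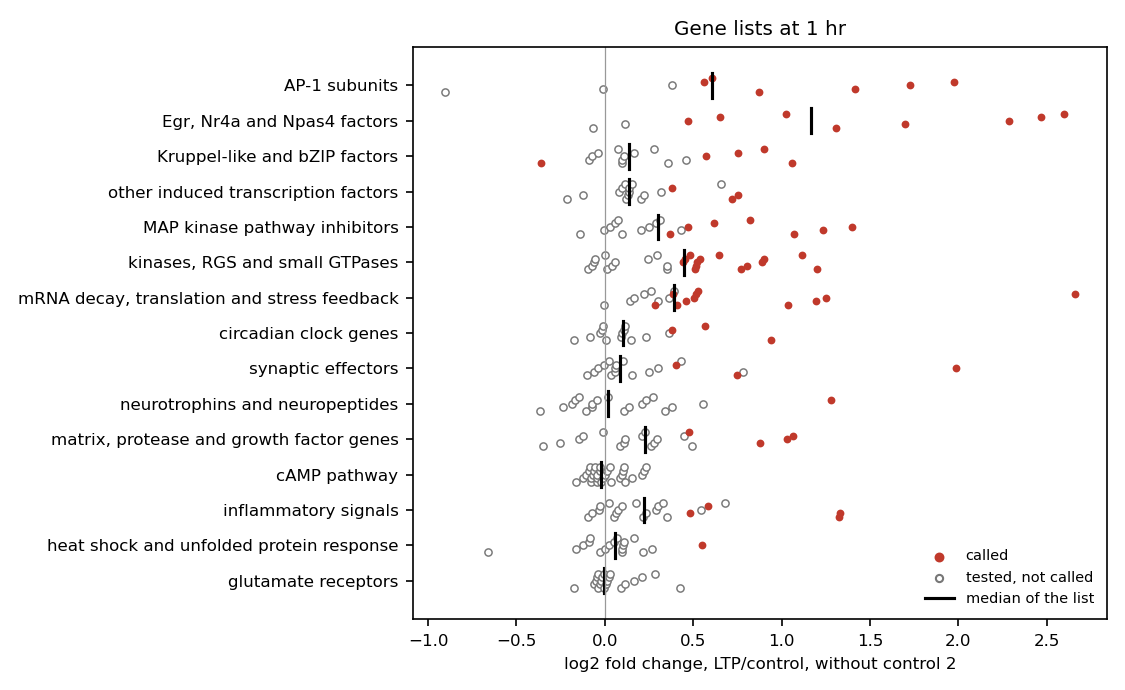
Log2 fold change without control 2 of each tested member of the 15 gene lists, with called genes as filled red points, uncalled genes as open points and a bar at the median of the list. Called members of the Egr, Nr4a and Npas4 list reach 2.60, whereas the cAMP pathway and the glutamate receptors have no filled point and medians of -0.02 and -0.01.

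Of 18 synaptic effectors 3 rose without control 2 and 4 with it, where 0.789% and 0.827% of all genes tested were called. Beside Arc these were Nptx2, a secreted pentraxin that clusters AMPA receptors (50.2, 54.9 and 51.1 CPM in the controls, 93.9, 77.6 and 83.1 CPM after LTP, 0.75, SE 0.0853), and Homer1 (409, 355 and 407 CPM against 557, 572 and 492 CPM, 0.41, SE 0.0733). The gene-level counts do not separate the short and long Homer1 forms. Homer1 lost its call without control 1 (0.41, edgeR adjusted p = 0.285), control 3 (0.40, 0.279) or LTP 1 (0.39, 0.119). Lrrtm2, a postsynaptic adhesion protein, was called only with all 6 libraries (0.39, edgeR adjusted p = 0.0986) or, without control 2, with the animal as a block (0.24, adjusted p = 0.0689). Nptx1 (-0.04), the Shank genes (0.03 to 0.25) and Camk2a (0.06) were not called, and 0 of 21 glutamate receptor genes were called in either fit.

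Of 19 neurotrophin and neuropeptide genes 1 was called. It was Trh, the precursor of thyrotropin-releasing hormone, which rose from 1.23, 1.51 and 2.50 CPM in the controls to 5.61, 4.25 and 3.84 CPM after LTP (1.28, SE 0.262, edgeR adjusted p = 0.0401). Its call was lost without control 1 (0.87, adjusted p = 0.481) or LTP 1 (1.11, 0.249). Bdnf, a CREB target at later times after activity, had a log2 fold change of 0.21 (edgeR adjusted p = 0.36) and Vgf one of 0.38 (adjusted p = 0.14). Of 19 tested matrix, protease and growth factor genes 4 rose in both fits: Thbs1 (15.1, 18.7 and 16.2 CPM against 34.0, 34.0 and 29.9 CPM, 1.06), the prostaglandin synthase Ptgs2 (160, 153 and 162 CPM against 303, 377 and 309 CPM, 1.03), Ccn1 (0.88) and the protease Adamts1 (0.48). Control 2 was the lowest control for Ptgs2, whereas it was the highest for Fos and Arc.

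In the circadian clock list, 3 of 16 rose in both fits: Ciart, an inhibitor of CLOCK and BMAL1 (13.7, 15.1 and 15.2 CPM against 29.3, 26.1 and 27.8 CPM, 0.94), Per1 (0.57) and Bhlhe40. Per1 lost its call without control 3 (0.45, edgeR adjusted p = 0.242), and Per2 (0.10) was not called. Of 22 inflammatory signals 4 rose: Cxcl10 (3.58, 5.45 and 3.30 CPM against 7.68, 11.1 and 7.25 CPM, 1.33), Il6 (2.98, 4.50 and 4.57 CPM against 8.97, 11.7 and 7.81 CPM, 1.32), Cxcl1 (0.59) and the NF-kB modulator Nfkbiz (0.48). The calls of Cxcl1 (without control 1, edgeR adjusted p = 0.404; without control 3, 0.466; without LTP 1, 0.154) and Nfkbiz (without control 1, 0.178) rested on single libraries. Of 18 heat shock and unfolded protein response genes 1 rose, the co-chaperone Dnajb1 (0.55, SE 0.0755). In the cAMP pathway, the route that forskolin acts on, 0 of 30 tested genes were called in either fit, with a median of -0.02, and Creb1 stood at 106, 89.5 and 104 CPM in the controls and 101, 107 and 103 CPM after LTP.

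Of the 140 calls, 71 lay outside the lists. Over all genes, 46 were called in both fits and in all 10 fits that left out 1 more library, and 11 of the 46 lay outside the lists. Of these 11, picked after their values were seen, 6 were Gm13889 (16.5, 24.0 and 16.4 CPM in the controls, 48.9, 45.3 and 54.0 CPM after LTP, log2 fold change 1.59), Kcnj2, an inwardly rectifying potassium channel (30.1, 31.0 and 34.5 CPM against 59.3, 73.0 and 58.3 CPM, 0.98), Tiparp, a mono-ADP-ribosyltransferase (107, 90.3 and 109 CPM against 210, 217 and 171 CPM, 0.88), Kdm6b, a demethylase of histone H3 lysine (0.75), Ccnl1 (0.71) and Ifrd1 (0.54). The genes of the RNA-binding proteins Hnrnpu (0.41), Ptbp1 (0.45), Hnrnpll (0.31) and Srsf7 (0.31) were called in both fits. They were single genes picked after their values were seen, with no list of such genes tested, and each lost its call in at least 1 of the 10 fits that left out a further library. The largest fitted rises of all were in Mmp21, a matrix metalloproteinase, and Adra2b, an adrenergic receptor, both near the floor and not tested with all 6 libraries, so no fold is given. Mmp21 had 0, 5 and 0 counts in the controls and 10, 12 and 8 counts after LTP, and Adra2b had 0, 0.124 and 0.0942 CPM and then 1.07, 0.902 and 0.210 CPM. The cleavage and polyadenylation factor Wdr33 was not called, with 57.5, 68.0 and 62.4 CPM in the controls and 66.2, 65.3 and 62.1 CPM after LTP (0.11).

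The fits differed in 50 calls. Of the 23 genes called only without control 2, control 2 was the highest control in 22. The smallest p among them belonged to Plk3, Irs2, Gadd45b, Egr3 and the nuclear long non-coding RNA Neat1. Neat1 had 61.3 and 60.2 CPM in controls 1 and 3 but 124 CPM in control 2, above LTP 1 (111 CPM) and LTP 3 (83.8 CPM) and below LTP 2 (149 CPM), so its log2 fold change was 0.92 (edgeR adjusted p = 0.0122) without control 2 and 0.48 (adjusted p = 0.620) with it. Egr3 had 17.6, 22.6 and 14.7 CPM in the controls and 27.6, 23.7 and 24.7 CPM after LTP. The groups of Egr3 did not overlap in either fit, and its log2 fold change was 0.65 (edgeR adjusted p = 0.00633) without control 2 and 0.47 (adjusted p = 0.214) with it. Plk3, a stress-responsive polo-like kinase, had 14.1, 20.8 and 13.9 CPM against 21.3, 22.1 and 22.3 CPM, and 0.65 became 0.43 (edgeR adjusted p = 0.307) with control 2. Irs2 was 70.3 CPM in control 2 and 65.1 CPM in LTP 2, so that the ratio within animal 2 was below 1 (log2 -0.11). Leaving out control 3 as well ended the calls of Egr3 (0.53, edgeR adjusted p = 0.230), Irs2 (0.57, 0.127), Gadd45b (0.47, 0.137) and Neat1 (0.90, 0.203), and leaving out control 1 that of Neat1 (0.93, 0.165). Of the 27 genes called only with all 6 libraries, control 2 was the lowest control in 15, among them Sox1 (10.0, 8.21 and 9.38 CPM against 15.1, 15.3 and 11.7 CPM) and Gcnt4 (6.72, 5.59 and 6.34 CPM against 9.29, 10.4 and 8.56 CPM). Sox1, a transcription factor of neural progenitors, also passed without control 2 when the animal was a block (0.46, edgeR adjusted p = 0.0727).

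Among the genes that fell, Myh11 was called only without control 2. It encodes the heavy chain of smooth muscle myosin and marks the muscle cells of arterioles. It had 10.8, 8.56 and 11 CPM in the controls and 8.22, 6.08 and 6.10 CPM after LTP, a log2 fold change of -0.68 (SE 0.142, edgeR adjusted p = 0.0465) without control 2 and -0.57 (adjusted p = 0.143) with it. Its call was also lost without control 1 (edgeR adjusted p = 0.321), control 3 (0.402) or LTP 2 (0.132). All 9 tested markers of smooth muscle cells and pericytes had a log2 fold change below 0, with a median of -0.42, and so did 9 of 9 endothelial markers (median -0.20) and 5 of 5 fibroblast markers (median -0.57), where 49.7% of all tested genes were above 0. None of the other 22 tested vascular and fibroblast markers was called. The summed level of the smooth muscle and pericyte markers was 199 to 213 CPM in the controls and 178 to 194 CPM after LTP, and that of the endothelial markers 147 to 161 CPM and 135 to 146 CPM. The fibroblast sum overlapped between the groups, with 33.3, 24.2 and 18.4 CPM in the controls and 21.1, 17.1 and 14.7 CPM after LTP. In whole slices, fewer cells of a type cannot be told apart from less RNA per cell. With all 6 libraries the call lower beside Klf10 was Rprm (-0.57, edgeR adjusted p = 0.0847), a gene outside the naming rule, with 9.52, 10.4 and 8.29 CPM in the controls and 7.07, 5.89 and 6.13 CPM after LTP.

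Among the 16 lists of markers, the pan-neuronal sum was 5526 to 6072 CPM in the controls and 5236 to 6064 CPM after LTP, with 0 of 7 markers above 0 in either fit (median -0.06) and 0 called. The astrocyte, microglia and pyramidal cell sums overlapped between the groups as well, and of 10 microglia markers 2 were above 0 without control 2 and 1 with it. Markers of dentate granule cells, the region cut away, were still at 161 to 259 CPM in all. All 10 oligodendrocyte markers lay above 0 (median 0.19) and 0 were called. Of 4 ependymal markers 4 were above 0 and 1 was called, Ccdc153 (3.34, 3.49 and 3.56 CPM against 6.36, 6.90 and 4.96 CPM, 0.81), and the summed level was 16.1 to 19.6 CPM in the controls and 24.5 to 26.7 CPM after LTP. The interneuron sum did not overlap between the groups, at 512, 502 and 574 CPM in the controls and 591, 586 and 581 CPM after LTP. Of 8 interneuron markers 0 were called without control 2 and 1, Dlx1 (0.68), with all 6 libraries. Over all genes tested 0.789% and 0.827% were called in these fits. Genes of motile cilia, a list added after the values were seen, lay above 0 in 12 of 12 cases (median 0.67), of which Dnah6 and Cfap43 were called without control 2 and 4 genes, Dnah6 among them, with all 6 libraries. The cilium sum was 128 to 133 CPM in the controls and 173, 191 and 155 CPM in LTP 1, 2 and 3. The part of these cells in the called genes was not tested.

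**Figure D4:**
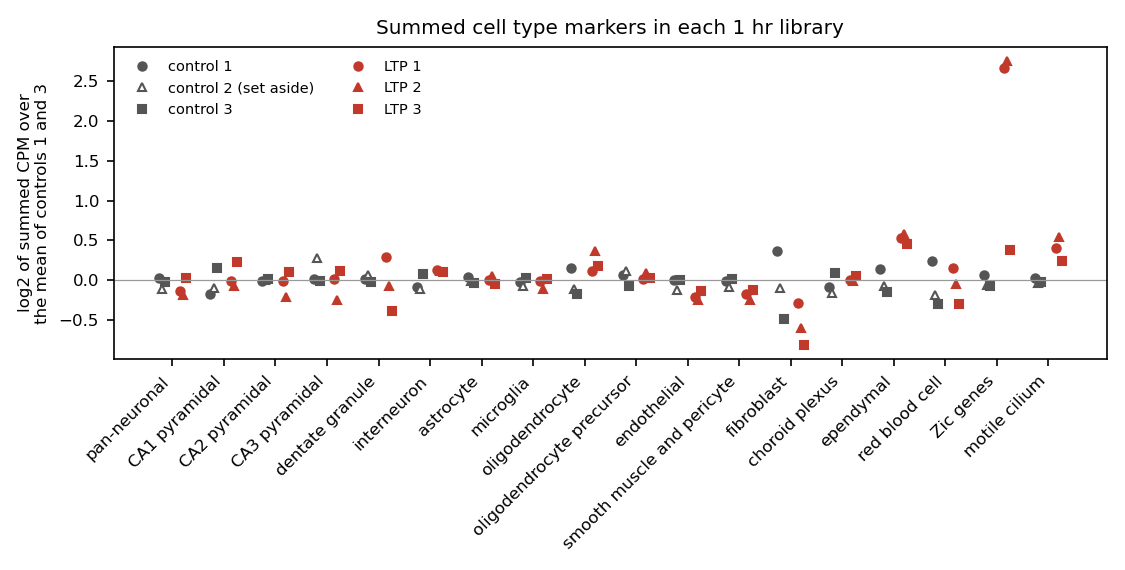
Summed CPM of each marker list in each library, as log2 of the ratio to the mean of controls 1 and 3, with controls in grey, LTP in red, marker shapes for the animals and an open triangle for control 2. The list of 4 Zic genes reaches 57.4 and 61.1 CPM in LTP 1 and 2, where it lies above the other lists drawn, the interneuron, ependymal and cilium lists are higher in all LTP libraries, and the endothelial and the smooth muscle and pericyte lists are lower in all of them.

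LTP 1 and LTP 2 shared a set of genes that were lower in LTP 3. In these libraries 20 genes were more than 2-fold above each of the other 4, out of 14172 genes that reached a mean of 1 CPM, and 0 genes met this rule for any other pair of the 6 libraries. The set held Zic1, Zic2, Zic4 and Zic5, zinc finger transcription factors of the developing forebrain and cerebellum. Zic1 had 3.04, 1.77 and 1.77 CPM in the controls, 31.7 and 33.9 CPM in LTP 1 and 2, and 1.82 CPM in LTP 3, so that LTP 3 lay at the level of its own control. Zic4 (5.10, 5.18 and 0.561 CPM in LTP 1, 2 and 3), the collagen gene Col6a3 (22.9, 16.5 and 1.33 CPM), Grid2ip (3.22, 3.56 and 0.281 CPM) and the carboxypeptidase Cpa6 (2.37, 2.47 and 0.444 CPM) went the same way. Of the 20 genes 4 were called without control 2 (Cpa6, Magel2, Zic2 and Zic5) and 9 with all 6 libraries, and Cpa6 (log2 fold change 2.61, edgeR adjusted p = 0.0943) was among the 10 largest rises. The rise was uneven between animals: within animals, Cpa6 had log2 ratios of 2.69, 2.97 and 0.51, and Zic1 of 3.34, 4.18 and 0.04. The call of Cpa6 was lost whenever 1 of control 1 (edgeR adjusted p = 0.528), control 3 (0.565), LTP 1 (0.364) or LTP 2 (0.249) was left out. Zic1 (2.37), Zic4 (2.11) and Grid2ip (2.4) passed without control 2 when the animal was a block (edgeR adjusted p = 0.00556, 0.00248 and 0.00862). That fit takes the difference from animals 1 and 3 alone, since LTP 2 then has no partner, with 1 residual degree of freedom per gene. The summed level of 5 cholinergic neuron markers, a list added after seeing the data of which 2 genes passed the filter, was 0.489, 1.80 and 0.518 CPM in the controls and 2.41, 2.60 and 0.702 CPM in LTP 1, 2 and 3. A list of 6 striatal projection neuron markers, also added after seeing the data, did not go this way. Its sum was 147, 146 and 145 CPM in the controls and 146, 144 and 140 CPM in LTP 1, 2 and 3. Whether the slices of LTP 1 and LTP 2 held other tissue was not tested.

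**Figure D5:**
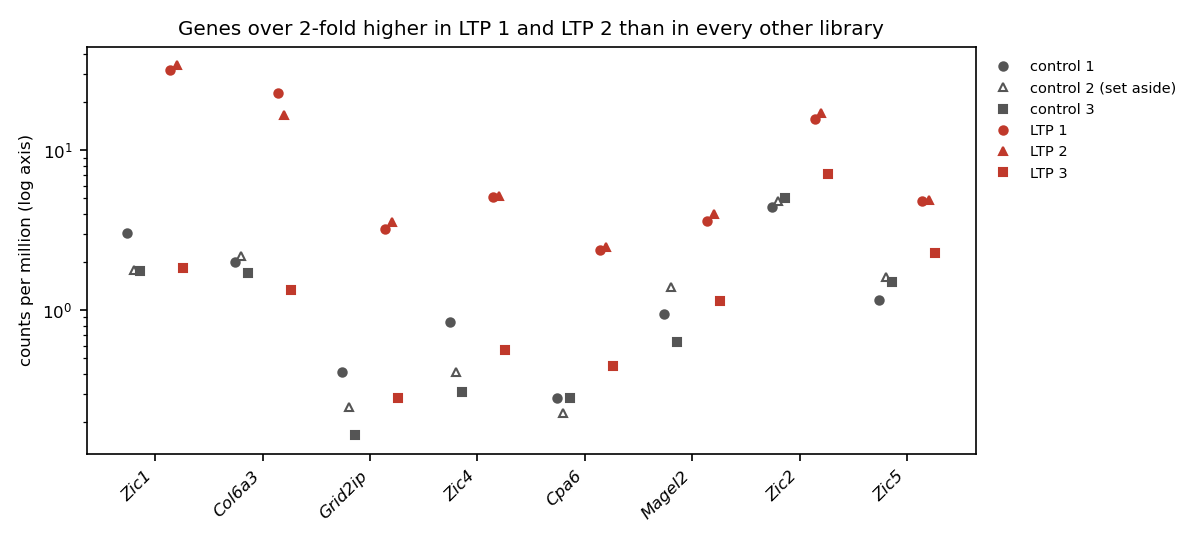
Level of the 8 genes of the set that the text names, in each library, in CPM on a log axis, with controls in grey, LTP in red, marker shapes for the animals and an open triangle for control 2. LTP 1 and LTP 2 stand above the other 4 libraries for each gene, and LTP 3 (red square) lies above the controls for Cpa6, Zic2 and Zic5, below them for Col6a3 and among them for the other genes.

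With LTP 3 as the only LTP library, an alternative chosen after seeing the data, 93 genes were called without control 2, of which 82 were among the 140, and 53 with all 3 controls, of which 49 were among the 144. The spread in these fits comes from the controls alone, and the single LTP library is assumed to vary like them. Homer1 (0.27, edgeR adjusted p = 0.193), Trh (1.03, adjusted p = 0.512) and Cpa6 (0.65, adjusted p = 1.00) were among the 13 named genes that lost their call.

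The called non-coding genes with the smallest p were led by a microRNA locus. The host transcript 1700016P03Rik (chr11:75172560-75177633), a processed transcript of whose exonic bases 74.3% overlap other genes, had 6.30, 7.84 and 6.93 CPM in the controls and 36.2, 39.0 and 33.2 CPM after LTP (log2 fold change 2.45, SE 0.107, edgeR adjusted p = 4.57e-09). Within it, Mir212 had 1.11, 1.61 and 0.919 CPM in the controls and 5.19, 3.53 and 4.49 CPM after LTP (2.12, SE 0.234), and Mir132 had 0.129, 0.681 and 0.424 CPM and then 2.12, 1.33 and 2.03 CPM (2.69, SE 0.422). The estimate for Mir132 rested on 5 counts in control 1, and it was 2.11 with control 2. The 2 other genes were the sense-intronic Gm17024 (3.83, 3.26 and 3.30 CPM against 7.61, 9.26 and 9.0 CPM, 1.28) and the pseudogene Gm17971 (0.669, 1.18 and 0.990 CPM against 2.41, 2.71 and 2.41 CPM, 1.59), whose call was lost without control 1 (1.34, edgeR adjusted p = 0.139). Gm17024 lies within Ifrd1, which also rose. Another called miRNA locus, Mir335 (0.309, 0.165 and 0.259 CPM against 0.927, 1.19 and 0.912 CPM, 1.82), lies in Mest, which rose by 0.54. Mir335 was not among the 46 genes called in both fits and in all 10 fits that left out 1 more library. Reads over these loci come from longer transcripts and do not measure the mature miRNAs. The mature sequences of the RefSeq table (GRCm38.p6) are shown because Mir132 and Mir212 differ outside the seed, bases 2 to 8 in capitals, and share it, while that of miR-335-5p is another.
miR-132-3p: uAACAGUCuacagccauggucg
miR-212-3p: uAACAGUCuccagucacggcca
miR-335-5p: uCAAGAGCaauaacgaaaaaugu

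Promoters were searched for the site of CREB, since forskolin acts through cAMP. In the RefSeq promoter table (GRCm38.p6, from 250 bases before to 50 after each start), 97 of the 140 called genes had an entry. The full cAMP response element TGACGTCA, which reads alike on both strands, occurred in 10 of the 97 (10.3%), in 3.36% of 12231 tested genes with an entry and in 2.03% of all promoters in the table. With the genes called in all 6 libraries the share was 10.8%. The shorter TGACG, searched on both strands and contained in the full site, occurred in 58.8% of the called genes and in 33.3% of those tested. The CArG box of serum response factor occurred in 3.09% against 1.59%, and the Egr motif GCGTGGGCG, searched on both strands, in 1.03% against 1.37%. A match is a description of the letters and not a site in use. The windows of 30 bases around the full element, in capitals, are shown for 5 called genes described above, because Btg2 was among the largest rises.
Btg2, chr1:134079303-134079332, minus strand: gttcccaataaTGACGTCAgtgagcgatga
Dusp1, chr17:26508597-26508626, minus strand: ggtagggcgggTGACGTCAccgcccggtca
Arl4d, chr11:101665504-101665533, plus strand: gccgcgtcgtgTGACGTCAcgagagggttt
Errfi1, chr4:150855008-150855037, plus strand: gctgcgggcgtTGACGTCAcgttgtcgctc
Plk2, chr13:110394971-110395000, plus strand: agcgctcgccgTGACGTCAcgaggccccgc
Counted from the start that the RefSeq table gives, which can differ from the annotated ends of the gene, the element starts 166 bases before it in Btg2, 143 in Dusp1, 26 in Arl4d, 51 in Errfi1 and 62 in Plk2. These 5 genes rose by 2.66, 1.40, 1.2, 0.82 and 0.44 on the log2 scale.

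Notch1 and Creb1, both named in the original work, did not pass the test on gene counts, and nor did Hprt. Notch1 had 22.6, 33.4 and 20.5 CPM in the controls and 23.2, 20.9 and 20.9 CPM after LTP, a log2 fold change of 0.01 without control 2 and -0.24 with it (edgeR adjusted p = 0.998 and 0.689). Control 2 had the highest level of Notch1 among the 6 libraries, and LTP 2, from the same animal, lay with the others. Creb1 had a log2 fold change of -0.02 and 0.05, and Hprt, the qPCR reference, had 111, 101 and 128 CPM in the controls and 111, 114 and 115 CPM after LTP (-0.08).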

How the data were processed

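Total RNA of 6 slice libraries (3 control, 3 LTP, 1 hr) was sequenced after ribosomal RNA depletion with a stranded kit. According to the study's methods, the authors aligned paired-end reads with STAR to GRCm38/mm10 and counted reads per gene with Bioconductor packages, and they deposited raw counts, not normalized, 1 table per time point. The paper describes its expression analysis as resting on coding-region reads, while the deposited table also lists non-coding genes, so which reads a gene's count holds is uncertain. Whether counting used strand is not given in the sources used here, so values of overlapping genes are uncertain. Of 41091 IDs, 40217 matched GENCODE M21, which gave symbols and positions, and 874 did not and stayed in the tests.

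The counts entered edgeR 4.0.16 (R 4.3.3), with its quasi-likelihood test after filterByExpr and TMM, with Benjamini-Hochberg adjustment over all genes tested. A call needed an adjusted p under 0.1 together with a change over 1.2-fold, which are the study's thresholds. Each fit used 1 hr libraries alone and no animal term. The main result left out control 2, as the study did, and the fit of all 6 libraries stands beside it. SE stands for standard error. Ratios within animals used log2 of CPM with a pseudocount of 0.1 CPM. Steps were tested on simulated data.

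The labels and methods state that control and LTP slices of a number came from the same animal. The deviations of paired libraries from their group means correlated, across genes, by -0.009, -0.25 and 0.078. The replicates are animals, and the main fits hold no animal term. Their p-values rest on the spread of libraries within each group, not on paired differences within animals. No pair of libraries was near identical (chi-square per degree of freedom 10.2 to 76.8).

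Alternatives were DESeq2 1.42.0, limma-voom (limma 3.58.1), other scalings and filters, glmTreat against 1.2-fold, an adjusted p under 0.05, the animal block, a model of all groups of both time points, leaving out each library, and, added after seeing the data, LTP 3 as the only LTP library. The named genes were those the study names for expression, the 10 largest rises and all falls among calls averaging 1 CPM or more whose groups do not overlap, called members of 15 gene lists, the 5 smallest p among genes called only without or only with control 2, the 3 largest gaps of control 2 in each direction, and the 5 called non-coding genes with the smallest p. Others were chosen after their values were seen. Members, lists and rules were chosen with earlier results of these data known. Some items are not reported here.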

Additional observations from a re-analysis of the deposited data

How the results depend on the processing

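Of 77 named genes that were called, 42 kept their call under each of the 17 or 18 alternatives to the fit without control 2 and 44 under each of those that did not leave out libraries, and 0 reversed. Of the 42, Csrnp1, Dnajb1 and Dusp5 lost their call in at least 1 fit that left a library out of all 6. The count of 140 genes without control 2 moved to 347 with no filter beyond 1 count, 67 with glmTreat against 1.2-fold, 220 with the animal as a replicate block and 93 with LTP 3 as the only LTP library, and from 69 to 344 when 1 library was left out. With all 6 libraries the count of 144 moved to 217 with DESeq2, 452 with no filter, 67 with glmTreat and 53 with LTP 3 alone, from 92 to 226 when 1 library was left out, and was 112 with the replicate block. Other alternatives gave 107 to 181 and 107 to 168 genes. The count of 220 with the block took the adjusted p alone. Among named genes not called without control 2, Zic1, Zic4, Grid2ip, Sox1 and Arl5b passed with the block. Lrrtm2 passed on the adjusted p but changed by under 1.2-fold. The cause of these shifts was not tested. Some genes not called without control 2 changed sign. Creb1 was 0.053 with all 6 libraries. Leaving out 1 library gave Hprt between -0.18 and 0.024 and Notch1 between -0.065 and 0.075. Notch1 was -0.0048 in the model of all groups, -0.046 with LTP 3 alone and -0.24 with all 6. With LTP 3 alone Zic1 was -0.39, Zic4 -0.026 and Grid2ip -0.022, against 3.23, 2.65 and 3.02. Where 1 control is left the spread comes from the LTP libraries, and with LTP 3 alone from the controls. A gene below 0.0617 to 0.0808 CPM, or 3 counts, could not be measured.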

Other observations

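Processed pseudogenes, which share sequence with abundant mRNAs, had a median log2 fold change of 0.22 over 987 tested genes without control 2 and 0.35 with all 6 libraries, while protein-coding genes had one of -0.01 without control 2. The shift was not particular to them. Without control 2, medians were also raised for unprocessed pseudogenes (0.25), miRNA genes (0.26) and snRNA genes (0.20), but not for long intergenic non-coding (0.03) or antisense genes (0.05). Of the 987, 4 were called, all higher. The values depend on how the authors treated reads that align to several places, which is not given in the sources used here.

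Among miRNA genes, 3 of 97 tested were called (3.09%), and among long intergenic non-coding RNAs 4 of 425 (0.941%), against 120 of 14724 protein-coding genes (0.815%). Of the miRNA genes called, Mir132 and Mir212 lie in the same host transcript, so the share does not count separate loci.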
